A study of Homo sapiens with 25 samples.

Results

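The data set out here are the H3K4me3 and H3K27ac peaks of MDA-MB-231 cells in which PML had been silenced, taken as the deposited peak list of each mark. A peak was called shared when it overlapped a peak of the other mark by at least 1 bp, and otherwise it was held by 1 mark only. On chromosomes 1 to 22 and X the PML knockdown lists held 27760 H3K4me3 peaks and 43615 H3K27ac peaks, 71375 of the 135906 peaks in the 4 lists of both marks and both conditions. MDA-MB-231 is a human triple-negative breast cancer line with mesenchymal, basal-like features that is widely used as a model of metastasis. The series holds 25 chromatin immunoprecipitation libraries of this line. The groups used are H3K4me3 in PML knockdown cells, H3K27ac in PML knockdown cells, and, as a comparison, the same marks in control cells, with 2 libraries in each group. Domain lists for lamin B1 (LMNB1) and H3K9me3 in PML knockdown cells and for PML itself give the chromatin context. The PML libraries carry a line name and no condition in their titles. PML was silenced with a short hairpin RNA delivered by lentivirus. The labels name neither the hairpin sequence nor the number of clones, and they do not say what the control cells received. The peak lists mark the conditions with short codes, read here as knockdown and control, which is an assumption.

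H3K4me3, trimethylation of lysine 4 of histone H3, is laid down around the start sites of genes by the SET1 and MLL enzyme complexes, which are drawn to unmethylated CpG-rich sequence, and it is found at promoters that are active or poised. H3K27ac, acetylation of lysine 27 of the same histone by p300 and CBP, marks active promoters and active enhancers. A promoter with H3K4me3 and no H3K27ac can be weakly active, poised or repressed by Polycomb, whose mark, trimethylation, occupies the same lysine 27 and cannot coexist with acetylation on 1 histone tail. H3K27ac without H3K4me3 is the usual pattern of enhancers. PML is the scaffold protein of PML nuclear bodies.

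The promoter classes described below differed most visibly in their CpG content, so the 150 bases before the start of 2 genes of each marked class are printed first, from RefSeq on GRCh38.p14 and with every CG in capitals. They were chosen after their classes were known. RPLP0, which encodes a protein of the large ribosomal subunit, and CD44, a hyaluronan receptor highly expressed in this line, held both marks. PEX11A, a peroxisomal membrane protein, and SOX2, a pluripotency factor, held H3K4me3 only. KRT5, a basal keratin, and S1PR4, a sphingosine-1-phosphate receptor, held H3K27ac only. Their H3K27ac peaks lay within 1 kb of the start but outside the printed bases, at S1PR4 949 bp from the start. An H3K4me3 peak lay 1421 bp from the start of S1PR4.
RPLP0 (chr12:120201112-120201261, minus strand): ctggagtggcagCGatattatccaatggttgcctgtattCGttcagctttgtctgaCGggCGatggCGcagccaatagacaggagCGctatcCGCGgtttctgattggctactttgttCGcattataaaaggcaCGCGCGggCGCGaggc
CD44 (chr11:35139021-35139170, plus strand): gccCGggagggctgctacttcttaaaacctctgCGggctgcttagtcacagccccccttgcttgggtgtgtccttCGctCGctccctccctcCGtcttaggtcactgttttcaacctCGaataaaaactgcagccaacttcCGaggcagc
PEX11A (chr15:89690755-89690904, minus strand): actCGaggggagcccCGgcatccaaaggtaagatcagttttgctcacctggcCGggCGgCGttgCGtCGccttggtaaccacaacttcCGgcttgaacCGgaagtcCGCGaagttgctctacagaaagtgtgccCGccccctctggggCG
SOX2 (chr3:181711775-181711924, plus strand): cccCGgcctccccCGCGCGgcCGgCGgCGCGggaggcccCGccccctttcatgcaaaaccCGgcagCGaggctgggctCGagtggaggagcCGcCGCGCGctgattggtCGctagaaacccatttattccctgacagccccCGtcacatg
KRT5 (chr12:52520395-52520544, minus strand): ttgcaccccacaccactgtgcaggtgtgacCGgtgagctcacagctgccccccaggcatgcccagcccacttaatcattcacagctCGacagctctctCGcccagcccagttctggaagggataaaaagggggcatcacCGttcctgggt
S1PR4 (chr19:3178619-3178768, plus strand): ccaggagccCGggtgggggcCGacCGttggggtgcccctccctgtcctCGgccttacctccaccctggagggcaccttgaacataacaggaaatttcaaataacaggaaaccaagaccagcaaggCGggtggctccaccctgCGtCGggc
These windows held 14 CGs at RPLP0, 7 at CD44, 13 at PEX11A, 18 at SOX2, 4 at KRT5 and 7 at S1PR4. Over all promoters matched to RefSeq the median number of CGs in the 250 bases before the start was 22 with both marks, 24 with H3K4me3 only, 4 with H3K27ac only and 5 with neither.

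H3K27ac peaks without H3K4me3 lay mostly far from the starts of genes. They often carried TGANTCA, with any base at N, taken here as the motif of AP-1, the dimers of the FOS and JUN families. Here and below, peak distances are to the start of the canonical Ensembl transcript of a gene, and its other annotated starts can lie closer. Of the 6 with the highest fold enrichment among those over 10 kb from every protein-coding start, 2 held this sequence within 250 bp of the summit. Both stretches are printed from hg38 with the AP-1 match in capitals.
near CALB2 (chr16:71338111-71338211, plus strand): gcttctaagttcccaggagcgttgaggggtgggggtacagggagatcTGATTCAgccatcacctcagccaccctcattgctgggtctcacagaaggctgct
near CAPN13 (chr2:30665040-30665140, plus strand): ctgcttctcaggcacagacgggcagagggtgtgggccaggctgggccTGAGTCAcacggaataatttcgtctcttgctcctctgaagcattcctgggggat
The summit of the first lay 20606 bp upstream of the start of CALB2, which encodes the calcium-binding protein calretinin, in a peak of fold enrichment 47.6. The summit of the second lay 142560 bp downstream of the start of CAPN13, which encodes a calpain protease, in a peak of fold enrichment 45.4.

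Each list was called on both replicates together, so no value per replicate exists, no test over samples was possible, and the depth is unknown. Every count and share below describes these lists. The fold enrichments are those the authors deposited with each peak and serve only to rank peaks within 1 list. Where no peak is listed the mark may still be present, below the authors' calling threshold. Within the knockdown lists the median fold enrichment was 11.7 for H3K4me3 and 6.68 for H3K27ac, and the median width 1179 and 1111 bp. All 8 marker genes of the line (VIM, CD44, EGFR, CAV1, AXL, MSN, ANXA1 and FOSL1) held both marks at their promoters in PML knockdown cells. Longer lists that share some of these genes were more divided. Of 14 basal genes 10 held both marks, TP63 H3K4me3 only, KRT5 H3K27ac only, and KRT14 and KRT17 neither. Of 16 mesenchymal genes 7 held both marks. None of the 10 defining markers of blood, endothelial and liver cells (among them PTPRC, HBB, PECAM1 and ALB) held either mark. On a longer list of 30 blood, endothelial and stromal genes, CD68, COL1A1 and PDGFRB held both marks, CD14 and KDR H3K4me3 only, and the other 25 neither. Among 8 luminal and epithelial genes that the line is known to lack, 3 (CDH1, GATA3 and GRHL2) held neither mark, 4 (ESR1, PGR, FOXA1 and ESRP1) held H3K4me3 only, and EPCAM held both.

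Most H3K4me3 peaks of PML knockdown cells overlapped H3K27ac, while about as many H3K27ac peaks stood alone as were shared. Of the 27760 H3K4me3 peaks, 21487 (77.4%) overlapped an H3K27ac peak and 6273 (22.6%) did not. Of the 43615 H3K27ac peaks, 22192 (50.9%) overlapped an H3K4me3 peak and 21423 (49.1%) did not. The lists differ in length, and with the 27760 H3K27ac peaks of highest fold enrichment set against the H3K4me3 list, 10210 H3K4me3 peaks and 10410 H3K27ac peaks stood alone. In both marks, peaks held by 1 mark only were narrower and weaker. The median width was 705 bp for H3K4me3 peaks without H3K27ac and 1443 bp for those with it. It was 907 bp for H3K27ac peaks without H3K4me3 and 1389 bp for those with it. The median fold enrichment was 7.72 without and 15.8 with H3K27ac in the H3K4me3 list, and 5.07 without and 9.76 with H3K4me3 in the H3K27ac list. Peaks with a -log10 q-value under 5, the weakest calls, made up 29.5% of H3K27ac peaks without H3K4me3 and 7.88% of those with it.

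H3K27ac peaks without H3K4me3 stood apart from the other 3 classes in where they lay. Only 136 H3K27ac peaks without H3K4me3 (0.635%) had their summit within 1 kb of the canonical start of a protein-coding gene. A further 1082 (5.05%) lay within 1 kb of another annotated start of such a gene. From the nearest canonical start, 54.0% lay between 10 and 100 kb and 33.0% over 100 kb. Introns of protein-coding genes held 45.5% of them and sequence between genes 28.7%. The median distance to the nearest start was 54041 bp, against 2696 bp for H3K27ac peaks that shared H3K4me3. H3K4me3 peaks without H3K27ac sat near starts as often as shared ones, 44.2% and 43.1% within 1 kb. Their median distances were 2371 and 4314 bp, an order that turned with a -log10 q-value of at least 5 (1229 and 1068 bp). Measured to the starts of all annotated genes, noncoding ones included, these medians were 868 and 972 bp, and 18139 bp for H3K27ac peaks without H3K4me3.

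**Figure D1:**
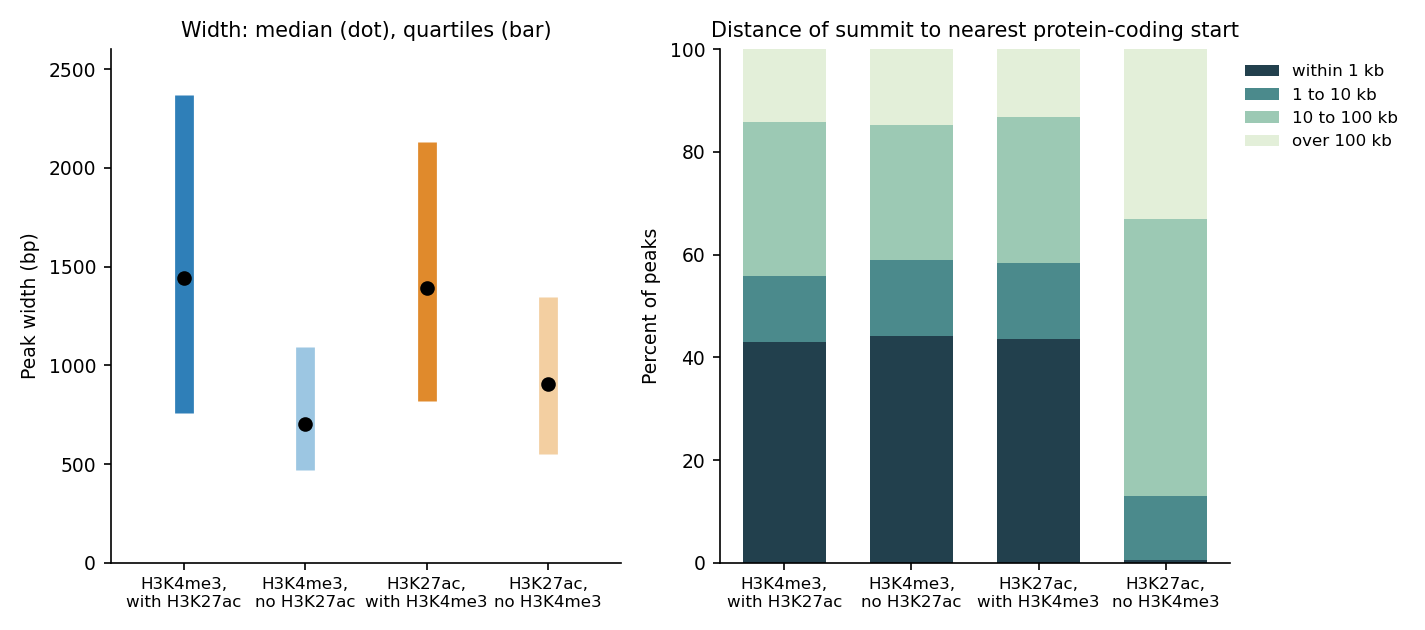
Left, peak width in bp for the 4 peak classes of PML knockdown cells, with the median as a dot and the quartiles as a bar. Right, the percent of peaks of each class by distance of the summit from the nearest canonical protein-coding start. H3K27ac peaks without H3K4me3 stand apart, with 0.635% within 1 kb, against 43.1 to 44.2% in the other classes.

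Near canonical starts, H3K27ac was almost never found without H3K4me3, and the strength of H3K4me3 tracked whether H3K27ac was there. Of 9817 H3K27ac peaks within 1 kb of a canonical start, 9681 (98.6%) overlapped H3K4me3. At other annotated starts of protein-coding genes the mark stood alone more often. Within 1 kb of those and of no canonical start, 2007 H3K27ac peaks overlapped H3K4me3 and 1082 did not. Of 12024 H3K4me3 peaks within 1 kb of a canonical start, 9251 (76.9%) overlapped H3K27ac. Sorted into 5 equal groups by H3K4me3 fold enrichment, these peaks overlapped H3K27ac in 32.0%, 67.0%, 88.8%, 97.1% and 99.8%, from the lowest to the highest group. Sorted by width the shares were 32.1%, 69.2%, 88.0%, 96.1% and 99.3%. Wider peaks also offer more sequence for an overlap, and the part of width in the trend was not tested.

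Over 10 kb from every protein-coding start the relation with fold enrichment was clearest for the H3K27ac peaks. There, H3K27ac fold enrichment went with the presence of H3K4me3: 12.7%, 17.5%, 25.5%, 40.0% and 69.7% of H3K27ac peaks overlapped H3K4me3 from the lowest to the highest of 5 equal groups. For H3K4me3 peaks at that distance the share with H3K27ac stayed between 72.7% and 84.4% over such groups, while sorted by width it climbed between 68.1% in the narrowest and 93.9% in the widest group. Shared H3K4me3 peaks at that distance were not the stronger ones, with a median fold enrichment of 5.77, against 6.02 for those without H3K27ac. They were still wider, at 838 against 577 bp.

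**Figure D2:**
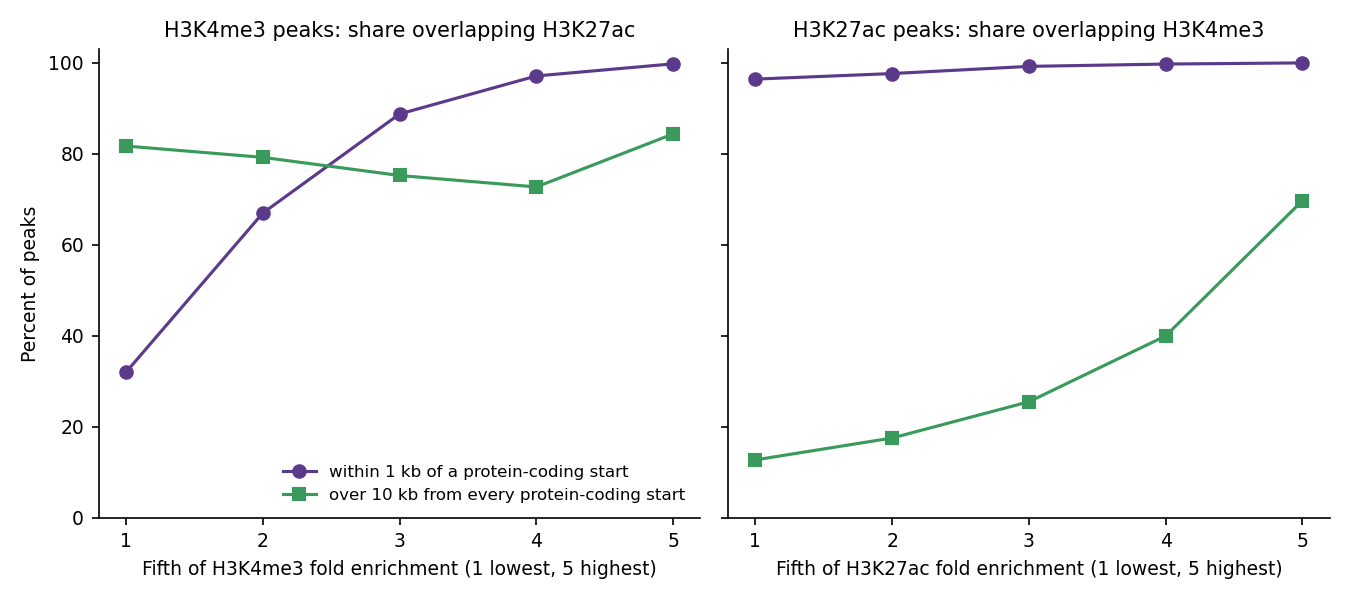
Percent of peaks that overlap the other mark, in 5 equal groups by fold enrichment, for H3K4me3 peaks (left) and H3K27ac peaks (right) of PML knockdown cells, near starts (circles) and over 10 kb from them (squares). Near starts the H3K4me3 curve climbs between 32.0% and 99.8%, and over 10 kb away the H3K27ac curve climbs between 12.7% and 69.7%.

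Where the marks met, they mostly met as single peaks with nearly coincident summits. In 19156 pairs each peak overlapped a single peak of the other list, with a median overlap of 948 bp and a median gap between summits of 61 bp. H3K4me3 was the wider peak in 10739 of these pairs (56.1%). The overlaps covered 63.4% of the length under H3K4me3 and 44.6% of that under H3K27ac. The most H3K27ac peaks over a single H3K4me3 peak was 4, at PGAM1, which encodes a glycolytic mutase (chromosome 10, 97425258 to 97428880). The widest peak of each list lay at the same place on chromosome X, where the start nearest to the H3K4me3 peak was that of MIR222HG, the host gene of the oncogenic microRNAs miR-221 and miR-222. There an H3K4me3 peak of 18688 bp (45757393 to 45776080) lay within an H3K27ac peak of 29243 bp (45747787 to 45777029).

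At the level of genes, promoters with both marks were the most common class. Promoters were taken as 1 kb on either side of the canonical Ensembl start of each protein-coding gene, 19970 in all. An H3K4me3 peak was found at 63.7% of them and an H3K27ac peak at 53.7%. Both marks were held by 10534 promoters (52.7%), H3K4me3 only by 2191 (11.0%), H3K27ac only by 184 (0.921%) and neither mark by 7061 (35.4%). The median H3K4me3 fold enrichment was 40.2 at promoters with both marks and 12.6 at those with H3K4me3 only, and the median width 2415 and 1128 bp. The median H3K27ac fold enrichment was 11.3 with both marks and 5.59 with H3K27ac only. Neighbouring starts in head-to-head orientation were found at 31.4% of promoters with both marks, 10.9% with H3K4me3 only, 2.17% with H3K27ac only and 5.52% with neither, against 19.7% of all promoters. The H3K27ac-only class was the least stable in size, with 308 promoters when 2.5 kb was taken on either side and 332 when any annotated start of a gene counted. In 26 of the 184 the H3K27ac peak also met an H3K4me3 peak just outside the window, and 20 had H3K4me3 at another start of the gene.

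The promoter classes had different sequence. A promoter was called CpG-rich when the 500 bp on either side of the start held at least 50% GC and an observed over expected CpG ratio of at least 0.6. By this measure 88.0% of promoters with both marks, 84.5% with H3K4me3 only, 6.52% with H3K27ac only and 25.7% with neither were CpG-rich, against 64.9% of all promoters. Seen from the sequence, 71.6% of 12951 CpG-rich promoters held both marks and 14.3% H3K4me3 only, while 12 (0.0927%) held H3K27ac only. Of the other 7019 promoters, 74.7% held neither mark and 18.0% both. H3K4me3-only promoters were as CpG-dense as those with both marks, with a median observed over expected ratio of 0.79 in each class, and had a higher median GC content, 67.2% against 63.2%.

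The ETS motif was more common at promoters with both marks than at those with H3K4me3 only. Among the 15321 promoters matched to RefSeq, over 300 bases around the start and on both strands, the ETS motif CCGGAAG was found in 23.1% of promoters with both marks and 7.97% with H3K4me3 only. It was found in 0.725% with H3K27ac only, 3.20% with neither and 14.7% of all. ETS factors such as GABPA bind many housekeeping promoters. The SP and KLF motif GGGCGG was found in 75.0% of promoters with both marks and 79.7% with H3K4me3 only, against 61.8% of all. The AP-1 motif TGANTCA was found in 15.9% of the H3K27ac-only promoters, 22 of 138 matched, against 5.50% of all and 3.95% of those with both marks. TATAAA within the last 50 bases before the start was found in 7.25% with H3K27ac only and 8.71% with neither, against 1.59% with both marks, 2.56% with H3K4me3 only and 4.08% of all. Matches describe these windows, and binding was not measured.

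The same AP-1 letters marked H3K27ac peaks away from starts. In windows of 501 bases around the summit, 40.6% of H3K27ac peaks without H3K4me3 held TGANTCA, against 21.4% of those with it and 30.8% of all H3K27ac peaks. Over 10 kb from every start the shares were 41.0% and 34.5%, with 38.8% of all, a smaller difference than over all distances. Within 1 kb of a start, shared H3K27ac peaks held it in 7.58%. The share was nearly level over 5 equal groups by fold enrichment of H3K27ac-only peaks over 10 kb from a start, between 39.1% and 42.9%. H3K4me3 peaks over 10 kb from every start held it in 16.9% without H3K27ac and 36.4% with it, against 32.2% of all such H3K4me3 peaks. The TEAD motif GGAATG, bound by the partners of YAP, was found in 34.1% of H3K27ac peaks without H3K4me3 over 10 kb from a start and 31.5% of those with it, against 33.2% of all at that distance. The windows also differed in median GC content, 44.9% in H3K27ac peaks without H3K4me3 and 56.3% with it. Over 10 kb from every start these were 44.5% and 48.5%. For H3K4me3 peaks there, the medians were 52.7% without H3K27ac and 48.3% with it. The part of base composition in the motif shares was not tested.

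**Figure D3:**
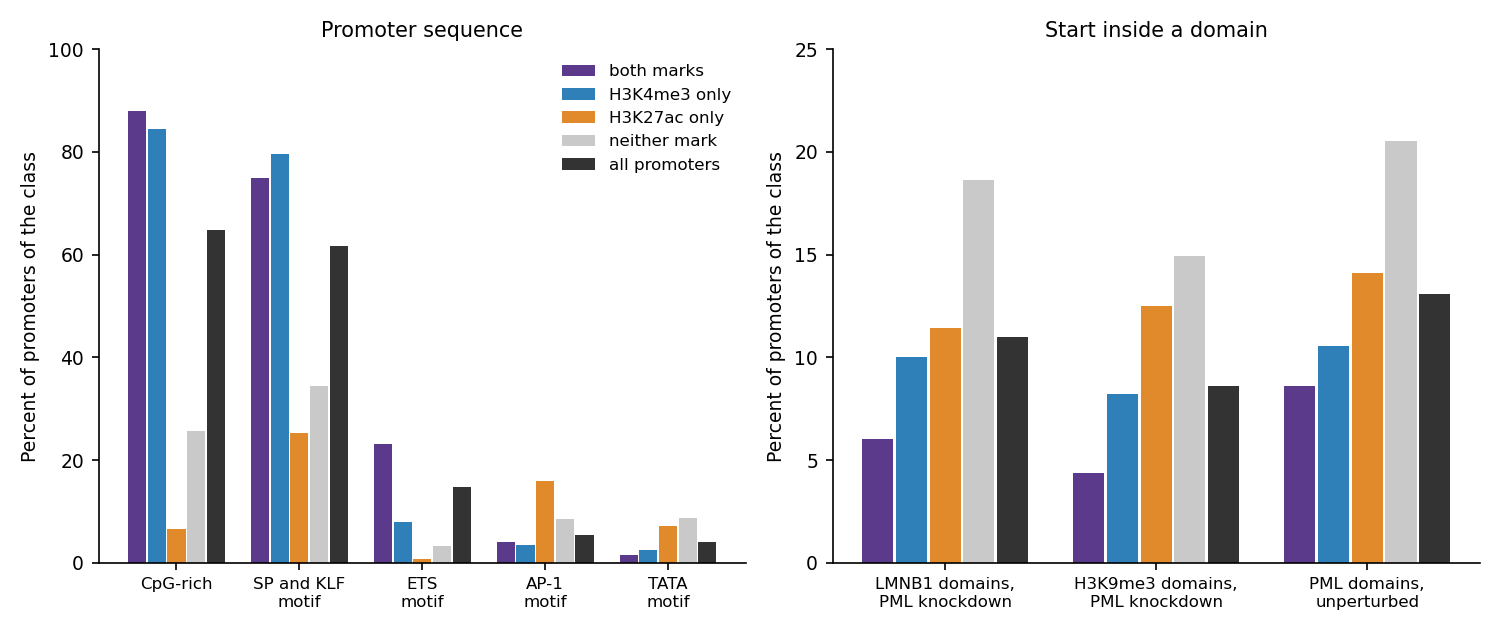
Left, percent of promoters of each class that are CpG-rich or hold a motif. Right, percent of promoters of each class that start inside an LMNB1, H3K9me3 or PML domain. Promoters with both marks have the smallest share in all 3 domain lists (6.02%, 4.38% and 8.58%), and those with H3K27ac only have the smallest CpG-rich share (6.52%).

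The strongest promoters with both marks often lay between divergent genes. The highest H3K4me3 fold enrichment in the class, 202, was shared by the divergent genes MDH1, the cytosolic malate dehydrogenase, and WDPCP, a planar polarity effector, over a peak of 3604 bp (chromosome 2, 63587163 to 63590766), with an H3K27ac fold enrichment of 37.1. GPR89A, a Golgi pH regulator, reached 185 for H3K4me3 and ASNSD1 166. The highest H3K27ac fold enrichment, 116, lay over the divergent pair of RPL7, a ribosomal protein gene, and RDH10, a retinol dehydrogenase. NOL8 and CENPP, a nucleolar protein and a kinetochore protein, shared a value of 108, and HPS5 and GTF2H1, a subunit of the general transcription factor TFIIH, shared 97.4. MAT2A, which makes S-adenosylmethionine, the methyl donor of histone methylation, reached 91.9.

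The 8 promoters of both marks with the widest H3K4me3 peaks were none of the 8 strongest by either mark. The widest was 14461 bp at EPHA2, an ephrin receptor tyrosine kinase. PLEC, a linker of intermediate filaments, followed with 12251 bp, TNRC18 with 12142 bp, DUSP4, a phosphatase of MAP kinases, with 11925 bp, and IRS1, the adaptor of the insulin receptor, with 11465 bp. BHLHE40, a circadian and hypoxia-responsive repressor, had 10776 bp, ITGA3, an integrin of laminin binding, 10639 bp, and NR3C1, the glucocorticoid receptor, 10609 bp. Their H3K4me3 fold enrichments, between 25.4 and 67.9, lay on both sides of the class median of 40.2. Their widest H3K27ac peaks were between 2851 and 12395 bp, against a median of 1484 bp in the class. The genes were chosen for their H3K4me3 widths in the knockdown list, between 10609 and 14461 bp, and in the control list these were between 4864 and 10574 bp. At EPHA2 the width was 14461 bp in the knockdown list and 6988 bp in the control list, at ITGA3 10639 and 6797 bp, and at NR3C1 10609 and 10574 bp.

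Promoters with H3K4me3 only included a few of high enrichment with no H3K27ac peak in reach. ARHGAP26, a GTPase-activating protein (chromosome 5, start at 142770377), had a fold enrichment of 109 over a peak of 3229 bp, and its nearest H3K27ac peak lay 26379 bp from the start. PEX11A and its divergent neighbour WDR93 shared a peak of fold enrichment 63.0 and the nearest H3K27ac peak lay 25157 bp from the start of PEX11A and 25214 bp from that of WDR93. CADM2, a neuronal adhesion molecule, had 56.4 with H3K27ac 356940 bp away, and IFTAP, a cilium gene, had 52.9 with H3K27ac 83540 bp away. CADM2 and IFTAP both started inside LMNB1 and PML domains. At 5 of the 10 genes with the highest values, H3K27ac lay just outside the window: at 1057 bp for COL4A6, 1086 bp for FOXA3, 1212 bp for FAM89B, 1452 bp for PSD and 2222 bp for PLXDC1. Their classes therefore rest on the width of the window. All 10 genes held H3K4me3 only in the control lists too.

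Some developmental, luminal and channel genes held H3K4me3 only, though most of the developmental and channel genes held neither mark. Of 51 developmental factors often marked by Polycomb, 9 (17.6%) held H3K4me3 only, 11 both marks and 31 neither. H3K4me3 only is held by 11.0% of all promoters and 14.3% of CpG-rich ones. SOX2 had a fold enrichment of 11.7 over 746 bp, TBX1, a factor of heart and pharyngeal development whose nearest H3K27ac peak lay 1081 bp away, 20.6, HAND1 19.2, PAX9 9.58, NKX2-1, a lung and thyroid factor, 9.56, and SOX21 9.49. Those with both marks included MEIS1 (55.1), FOXA2 (45.8) and SOX9 (42.0), which is known to be active in basal-like breast cancer. Of 96 potassium channel genes 19 (19.8%) held H3K4me3 only, 5 both and 72 neither. Of 53 clustered protocadherins 9 (17.0%) held H3K4me3 only, 3 both and 41 neither. In the luminal list of 18 genes, 8 held both marks, 5 H3K4me3 only, 1 H3K27ac only and 4 neither. Those with H3K4me3 only were MYB (28.2), PRLR, the prolactin receptor (13.7), FOXA1 (8.99), ESR1, the oestrogen receptor (6.35), and PGR, the progesterone receptor (5.50). MYB and PRLR lay above the class median of 12.6 and the other 3 below it. Their nearest H3K27ac peaks were between 42977 bp (ESR1) and 396828 bp (FOXA1) from the start.

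The small H3K27ac-only class was led by genes at the edge of an acetylated stretch, and by the keratin-associated cluster. Of the 184 promoters, 60 (32.6%) had their start under the H3K27ac peak. GSG1, a germ cell gene, and an unnamed gene had the highest fold enrichment, 32.2 each, from peaks 993 and 810 bp from their starts. S1PR4 followed with 26.3 from a peak that ended 949 bp from its start, and H3K4me3 lay 1421 bp away. BNC1, basonuclin, a factor of basal epithelium, had 23.2 with the peak at 679 bp, and ACSL5, a fatty acid ligase, 20.7 at 883 bp. Among the 10 highest, KRTAP4-9 alone had its start under the peak, with 24.4 over 4552 bp. In the other 9 the peak lay between 399 and 993 bp from the start, so their class rests on the width of the window. The nearest H3K4me3 peak lay 20641 bp from the start of GOLGA8R and 3209 bp from that of KRTAP4-9. At the rest of the 10 it lay between 1091 bp (ACSL5) and 1421 bp (S1PR4), just outside the window. The H3K27ac peak at GSG1 and the unnamed gene overlapped that H3K4me3 peak. The H3K27ac peak of KRTAP4-9 was also that of KRTAP4-16, which held both marks. Among the fixed lists the class held TFF1, an oestrogen-responsive secreted factor (4.24, peak over the start), KRT5 (7.44, peak at 934 bp), BST2, the antiviral protein tetherin (3.27, at 475 bp), and IL24, a cytokine (4.98, at 656 bp).

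Keratin and keratin-associated genes were the family with the largest share in this class of the 15 families counted. Of 149 genes, 12 (8.05%) held H3K27ac only, against 0.921% of all promoters, 5 held both marks, KRT19 held H3K4me3 only and 131 held neither. The next largest share was 4.17%, in the claudins. Of the 12, 9 lay on chromosome 17, and 10 started inside an LMNB1 domain, as did 93 of all 149 genes of the family. Inside an H3K9me3 domain started 10 of the 12 and 100 of the 149. On chromosome 17 the 8 genes KRTAP2-1 (21.6), KRTAP2-3 (16.9), KRTAP2-4 (5.33), KRTAP4-7 (17.2), KRTAP4-8 (8.06), KRTAP4-9 (24.4), KRTAP4-6 (7.37) and KRT34 (8.54) started between 41047316 and 41382306 inside both LMNB1 and H3K9me3 domains of PML knockdown cells. They made up 8 of the 10 H3K27ac-only promoters found inside both kinds of domain. All 8 held H3K27ac only in the control lists as well. The keratin-associated genes among these 8 are close copies of each other. How the authors' alignment treated reads that match several copies is not stated in the labels or files, so the peaks of single members are uncertain. The 5 with both marks were KRT80, KRT7, KRT8, KRT18 and KRTAP4-16. KRTAP4-16 had an H3K4me3 fold enrichment of 4.26 in the knockdown list and held H3K27ac only in the control lists.

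**Figure D4:**
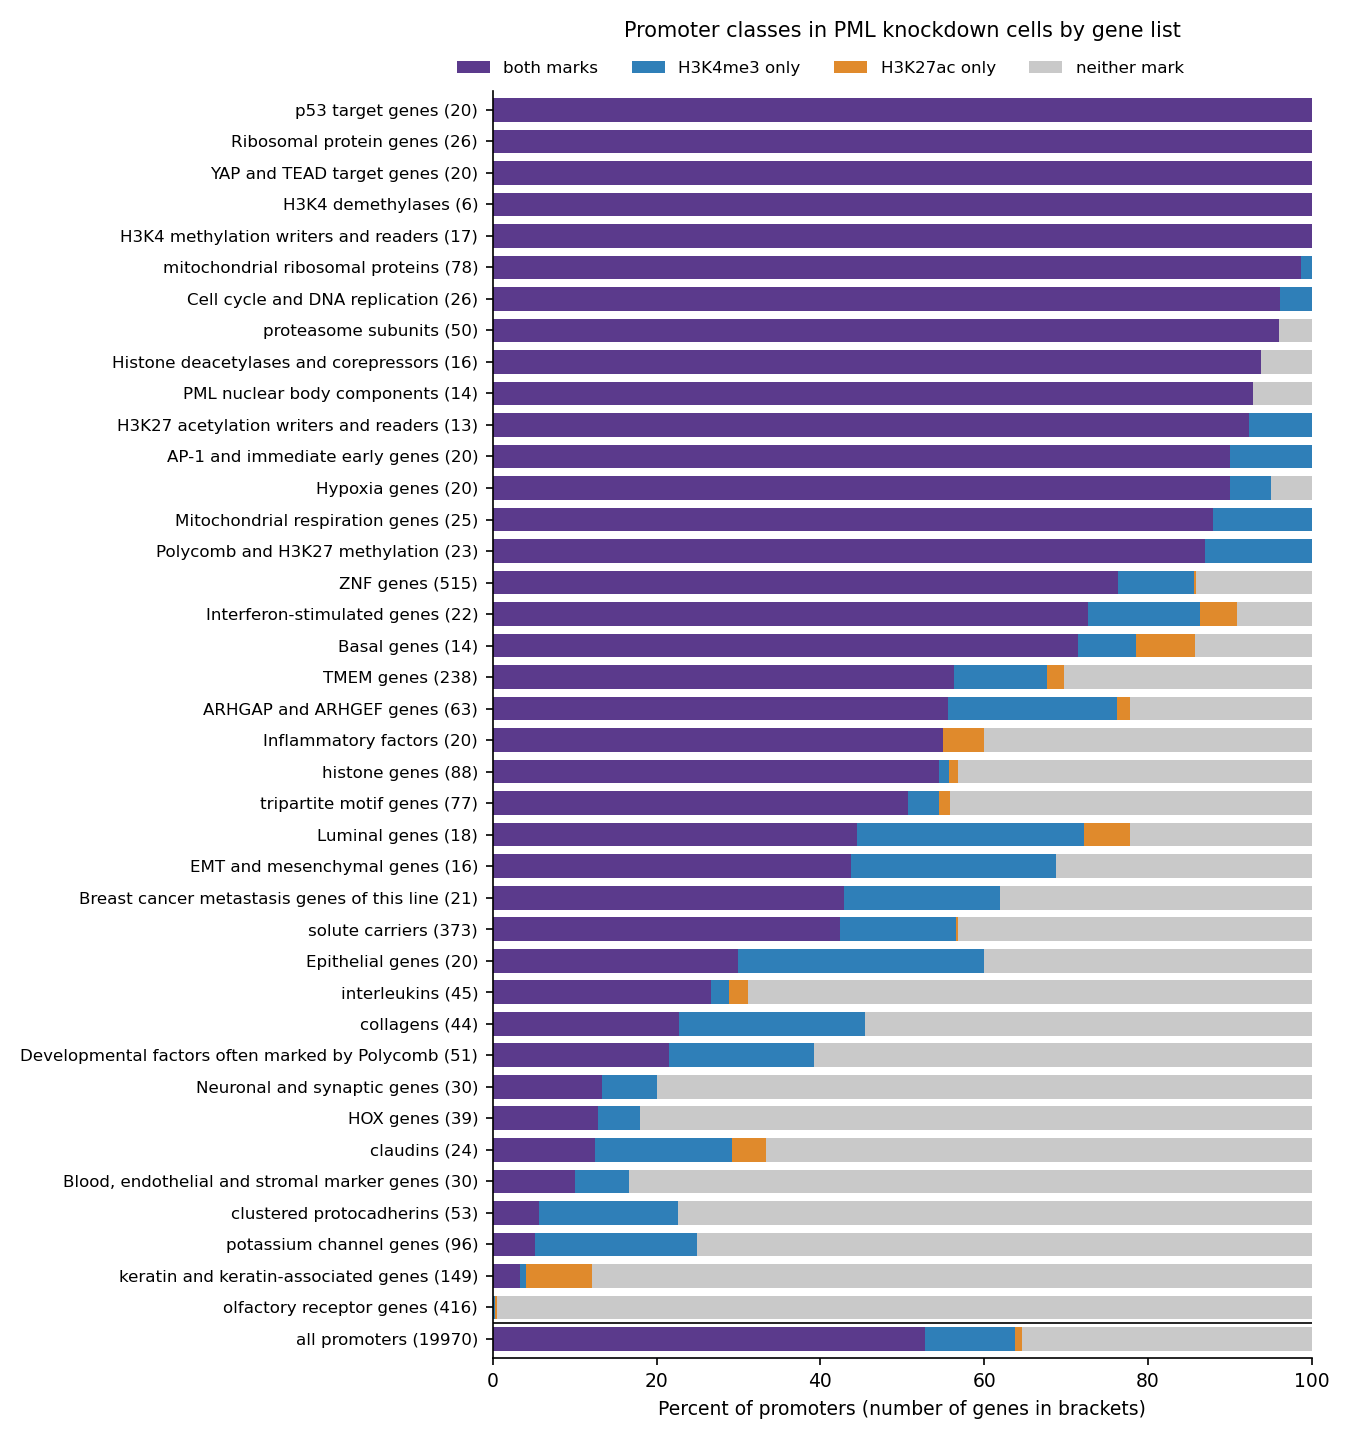
Percent of promoters in each class for 24 gene lists and 15 gene families in PML knockdown cells, with the number of genes in brackets and all promoters at the bottom. Lists of housekeeping, chromatin, p53 and YAP target genes hold almost only both marks, and olfactory receptor, keratin and neuronal genes mostly hold neither.

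Gene lists spanned the whole range between all members with both marks and none. Both marks were held by 26 of 26 ribosomal protein genes, 20 of 20 YAP and TEAD targets, 20 of 20 p53 targets, 17 of 17 H3K4 methylation writers and readers and 6 of 6 H3K4 demethylases, against 52.7% of all promoters. The YAP and TEAD targets had a median H3K27ac fold enrichment of 23.2 and a median H3K27ac width of 4552.5 bp, against 11.2 and 1473 bp over all promoters with the mark. CCN1, a matricellular protein, had fold enrichments of 79.5 for H3K4me3 and 42.2 for H3K27ac, F3, tissue factor, 117 and 42.1, and NT5E, an ecto-5'-nucleotidase, 74.2 and 45.6. Ribosomal protein genes had a median H3K4me3 fold enrichment of 59.1, against 35.3 over all promoters with the mark. Of 26 cell cycle genes 25 held both marks. The exception was CCNE1, cyclin E, with H3K4me3 of 7.53, whose start lay in LMNB1, H3K9me3 and PML domains. Of 14 PML body components 13 held both marks, among them PML itself (58.3 and 11.3), SP100 (60.9 and 25.2) and DAXX (39.5 and 16.8), and SP140 held neither. Silencing by hairpin targets messenger RNA, and marks at the PML promoter are no check of it.

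Metastasis, mesenchymal and inflammatory genes were divided among the classes. Of 21 genes tied to metastasis of this line, 9 (42.9%) held both marks, 4 H3K4me3 only and 8 neither, against 52.7%, 11.0% and 35.4% of all promoters. Both marks were found at PTGS2, cyclooxygenase 2 (58.8 and 10.8), ADAMTS1, a matrix protease (62.6 and 9.20), and HBEGF, an EGF receptor ligand (47.8 and 5.62). H3K4me3 only was found at CTSV, a cathepsin (23.2), LTBP1, which binds latent TGF-beta (21.7), CXCR4, a chemokine receptor (10.2), and ANGPTL4, a secreted factor that loosens vessels (5.76), where the nearest H3K27ac peak lay 1460 bp from the start. Neither mark lay at the canonical starts of MMP1, MMP2, SPARC, VCAM1 and SPP1, though an H3K27ac peak came within 1298 bp of SPARC and 1308 bp of MMP1. Of 16 mesenchymal genes 7 held both marks, among them ZEB1 (87.7 and 54.0), SNAI2 (51.0 and 8.11) and VIM (45.6 and 25.2), which encode 2 repressors of E-cadherin and an intermediate filament. SNAI1, another such repressor, held H3K4me3 only (23.5). TWIST1, TWIST2, CDH2, PRRX1 and FOXC2 held neither. Of 20 inflammatory factors 11 held both marks, IL24 H3K27ac only, and 8 neither, among them IL1A, IL1B, CXCL10 and CCL2.

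Over 10 kb from every protein-coding start, 78.7% of H3K4me3 peaks overlapped H3K27ac and 33.1% of H3K27ac peaks overlapped H3K4me3. The strongest peaks of 1 mark only at that distance are given here. The strongest H3K27ac peak without H3K4me3 over 10 kb from every protein-coding start had a fold enrichment of 62.8 and a width of 6518 bp (chromosome 1, 159595200 to 159601717). It lay 391 bp from the start of an olfactory receptor pseudogene and 10081 bp from APCS, which encodes serum amyloid P, inside LMNB1 and PML domains. The next lay in an intron near PLCE1, a phospholipase (55.6), near CALB2 (47.6), in an intron by KCNMA1, a potassium channel (47.1), in an intron near LRRC17 (47.0) and near CAPN13 (45.4). All 6 had an H3K27ac peak and no H3K4me3 peak in the control lists. The strongest H3K4me3 peaks without H3K27ac at that distance had fold enrichments between 45.1 and 53.2. The first lay 17 bp from the start of a transcribed pseudogene near ARHGAP17. Those near SRGAP2B, TPTE and FAM72C lay in regions of recent duplication, where alignment of reads is uncertain.

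The share of promoters that started inside a lamina or heterochromatin domain was lowest for those with both marks and highest for those with neither. LMNB1 marks contact with the nuclear lamina and H3K9me3 marks heterochromatin, and both are known to hold few active genes. Of all promoters 11.0% started in an LMNB1 domain of PML knockdown cells, against 6.02% of those with both marks, 10.0% with H3K4me3 only, 11.4% with H3K27ac only and 18.7% with neither. For H3K9me3 domains of PML knockdown cells the shares were 4.38%, 8.22%, 12.5% and 14.9% in the same order of classes, with 8.60% of all. For PML domains they were 8.58%, 10.5%, 14.1% and 20.5%, with 13.1% of all. The H3K27ac-only share rests on 21 promoters in LMNB1 and 23 in H3K9me3 domains, of which the keratin cluster on chromosome 17 gave 8 in both. Among the 460 promoters in both LMNB1 and H3K9me3 domains 15.4% held both marks and 75.4% neither, while among the 16521 in neither domain 57.6% held both and 30.5% neither.

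Promoters with both marks had higher median fold enrichments inside LMNB1 domains than outside. Their median H3K4me3 fold enrichment was 46.8 inside and 39.8 outside, and their median H3K27ac fold enrichment 12.7 inside and 11.3 outside. Inside PML domains the H3K4me3 median was 47.3, against 39.6 outside. In H3K9me3 domains the order was the other way round, with H3K4me3 at 36.8 inside and 40.3 outside and H3K27ac at 10.6 inside and 11.4 outside. Over all shared H3K4me3 peaks, those at promoters and those elsewhere together, the LMNB1 medians for H3K4me3 were 9.80 inside and 16.5 outside. A larger share of the peaks held by 1 mark only than of the shared peaks lay inside LMNB1 domains: 12.8% of H3K4me3 peaks without H3K27ac and 7.63% of those with it, and 14.7% of H3K27ac peaks without H3K4me3 and 7.63% of those with it. By number, 803 H3K4me3 peaks without H3K27ac and 1639 with it lay inside these domains. In PML domains the shares were 13.4% and 10.4% for H3K4me3, and 18.0% and 10.3% for H3K27ac. Genes with both marks inside LMNB1, H3K9me3 and PML domains included SOX9, with an H3K4me3 fold enrichment of 42.0.

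Most promoters held the same class in the control lists. The class was the same in the knockdown and the control lists for 18727 promoters and differed for 1243 (6.22%). Promoters with both marks numbered 10534 in the knockdown lists and 9934 (49.7%) in the control lists, and those with H3K4me3 only 2191 and 2413 (12.1%). The largest exchange was of 633 promoters with both marks in the knockdown lists and H3K4me3 only in the control lists, against 125 the other way. Over both directions and all classes an H3K27ac promoter peak was in the knockdown list only at 709 promoters (3.55%) and in the control list only at 145 (0.726%). For H3K4me3 these were 397 (1.99%) and 19 (0.0951%). With equal numbers of peaks in both conditions they were 667 and 237 for H3K27ac, and 236 and 149 for H3K4me3. The largest exchange was then 592 against 206. As deposited, the knockdown lists are the longer ones. No replicate value exists, so differences between conditions have no replicate check.

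The exchange lay among weak peaks. The 633 promoters that held both marks in the knockdown lists and H3K4me3 only in the control lists had a median H3K27ac fold enrichment of 4.07 in the knockdown list, against 11.3 over the whole class. The highest H3K27ac values among them, after 48.8 at an unnamed gene, were at DBN1, drebrin, an actin-binding protein (24.5), ST8SIA4, a polysialyltransferase (18.7), KDM5B, a demethylase of H3K4me3 (16.8), PER1, a clock gene (12.7), and DDR1, a collagen receptor kinase (11.8). The peak lay 884 bp from the start of DBN1, 531 bp from that of DDR1 and 33 bp from that of ST8SIA4. It covered the start of KDM5B, and a weaker H3K27ac peak covered that of PER1. At all 5 genes the control list had an H3K27ac peak just outside the window, at 1101 bp for DBN1, 1190 bp for ST8SIA4, 1112 bp for KDM5B, 1244 bp for PER1 and 1779 bp for DDR1. Over the 633 promoters this was uncommon: in 70 (11.1%) the control list had an H3K27ac peak within 2 kb of the start, and the median distance was 15045 bp. Of the 24 gene lists, 12 had such members, 19 different genes of 521 on the lists (3.65%), against 3.17% of all promoters. Most per list were found among p53 targets and Polycomb and H3K27 methylation factors, with 4 of 20 and 4 of 23. As a share, 1 of 6 H3K4 demethylases (16.7%) came close. Only promoters with H3K4me3 only in the control lists can make this exchange, and 26.2% of them did. That control class held 4 of the p53 targets and 6 of the Polycomb factors. The p53 targets were CDKN1A, which encodes the cell cycle inhibitor p21 (1.68), BBC3, the pro-apoptotic PUMA (3.21), FAS, a death receptor (2.69), and PHLDA3 (3.78). The Polycomb factors included AEBP2 (5.32), RNF2 (4.91) and KDM2B (3.51). The other 10 lists gave 1 or 2 genes each, among them CREBBP, an acetyltransferase of H3K27 (4.14), EPCAM (5.34), CXCL1, a chemokine (2.86), and GATA6, a developmental factor (5.97). With a -log10 q-value of at least 5 in all lists, KDM5B, PER1, DBN1, ST8SIA4 and DDR1 kept this exchange. Classes at this limit are not at hand for the p53 and Polycomb genes named here.

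In the other direction, promoters that held H3K4me3 only in the knockdown lists and both marks in the control lists included 3 mesenchymal genes. The 125 had a median H3K27ac fold enrichment of 3.43 in the control list. ZEB2, a repressor of E-cadherin, had 4.87 there, LOX, lysyl oxidase, 4.90, and TGFBI, a matrix protein induced by TGF-beta, 2.79. Of the 16 genes on that list, 10 held both marks in the control lists, and these 3 were among them. Of all promoters with both marks in the control lists, 1.26% held H3K4me3 only in the knockdown lists. ZEB2, LOX and TGFBI held H3K4me3 in both conditions, as all promoters of this exchange do by definition. In knockdown cells the nearest H3K27ac peak lay 1520 bp from the start of ZEB2 and 1140 bp from that of LOX, just outside the window. For TGFBI it lay 6967 bp away. Others of this kind were the interferon-induced antiviral genes MX1 and OAS1, the squamous factor TP63, CBX2 of Polycomb, and MAPK3, the kinase ERK1, whose control peak had 7.15. TGFBI, MX1, OAS1, TP63 and CBX2 did not hold both marks in the control lists once a -log10 q-value of at least 5 was asked for, and ZEB2, LOX and MAPK3 did.

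Most promoters that held H3K27ac only in the control lists held H3K27ac in the knockdown lists too. Of 220 (1.10%) such promoters, 130 held H3K27ac only in the knockdown lists, 73 held both marks and 17 neither. With equal numbers of peaks in both conditions the 73 came to 40. The 73 had a median H3K4me3 fold enrichment of 4.70 in the knockdown list. After an unnamed gene whose peak lay 975 bp from its start, the highest was FURIN, a proprotein convertase, with 37.6 at 746 bp, and its nearest control H3K4me3 peak lay at 1833 bp. MARCHF4, a ubiquitin ligase, had 15.7 over its start, and its nearest control H3K4me3 peak lay 39808 bp away. The inflammatory genes CXCL8, interleukin 8 (6.96), and CSF2, GM-CSF (2.64), were of this kind, as were TFF3 and LATS2. GKN1, a gastric protein, and MACC1, which regulates the MET receptor, held neither mark in the knockdown lists and had H3K27ac fold enrichments of 30.1 and 29.1 in the control list. Their nearest H3K27ac peaks in the knockdown list lay 1304 and 1094 bp from the start, just outside the window. Promoters with neither mark in the knockdown lists and both in the control lists numbered 3, and 13 with equal numbers of peaks. The 3 were KYNU, kynureninase of tryptophan breakdown, KLRC3, a natural killer receptor, and SULT1C2, a sulfotransferase, with control H3K4me3 fold enrichments of 4.37, 4.38 and 3.55. With a -log10 q-value of at least 5, KYNU held H3K4me3 only in the control lists and the other 2 neither mark.

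**Figure D5:**
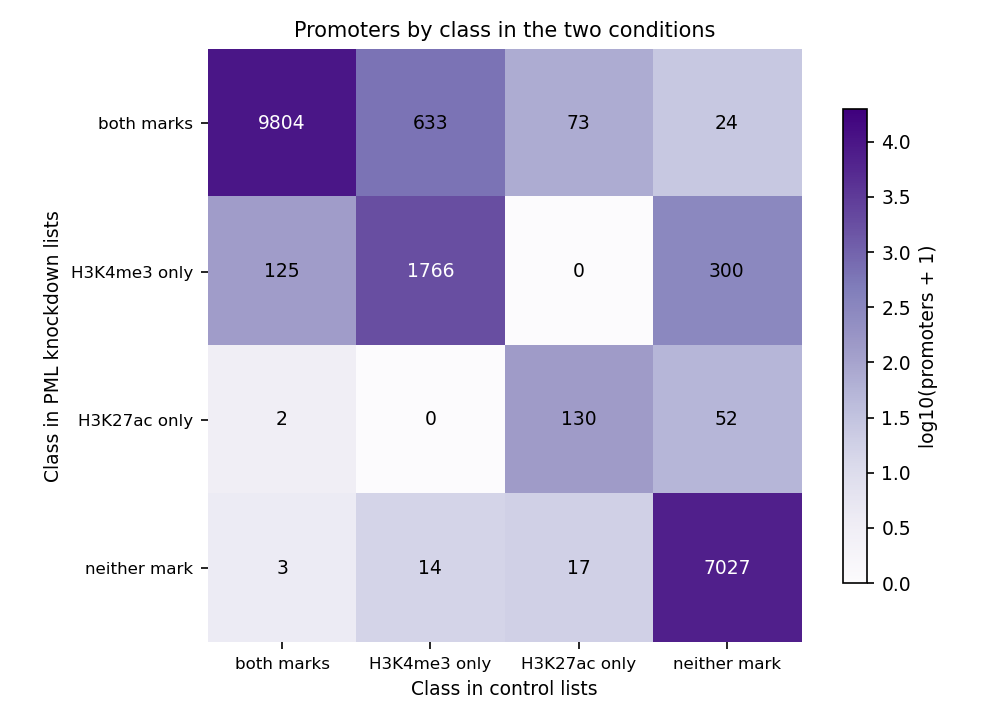
Number of promoters by class in the PML knockdown lists (rows) and in the control lists (columns), with shading on a log10 scale. The diagonal holds 18727 of 19970 promoters, and the largest cell off the diagonal is 633, with both marks in the knockdown lists and H3K4me3 only in the control lists.

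At the level of peaks the difference was larger than at promoters. The share of H3K4me3 peaks that overlapped H3K27ac was 77.4% in the knockdown lists and 72.8% in the control lists, and the share of H3K27ac peaks that overlapped H3K4me3 was 50.9% and 40.6%. Of the 21487 shared H3K4me3 peaks of the knockdown list, 68.8% overlapped peaks of both marks in the control lists and 5268 (24.5%) overlapped control H3K27ac and no control H3K4me3. Of the 6273 H3K4me3 peaks without H3K27ac, 65.8% overlapped control H3K4me3 only and 27.1% no control peak. Of the 21423 H3K27ac peaks without H3K4me3, 76.7% overlapped control H3K27ac only and 23.0% no control peak. The knockdown H3K4me3 list is the longer one, 27760 against 22211 peaks, and the part of list length in these shares was not tested.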

How the data were processed

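H3K4me3 and H3K27ac were measured by chromatin immunoprecipitation and sequencing, after fixation of MDA-MB-231 cells with formaldehyde and disuccinimidyl glutarate, per the labels' protocols. The submitters' processing notes name hg38, MACS2 2.2.7.1, deepTools, BWA 0.7.12-r1039 and Picard without a role. The deposited peak lists give a fold enrichment, a ratio, and a -log10 q-value per peak, with a lowest -log10 q-value of about 1.3. The peak names in the deposited files show that replicates 1 and 2 were pooled for calling. The deposited domain lists give a score per domain, which was not used for any value, and their caller appears only in the names, as EDD. Depth is unknown, so no precision could be derived from counts.

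Chromosomes 1 to 22 and X were kept, which left out 68 H3K4me3 and 60 H3K27ac knockdown peaks. Genes came from GENCODE release 44. Peaks were shared at 1 bp of overlap, and the distances of peak classes were taken from the summit to the canonical start of a gene. No test was run, because each mark and condition has 1 list. Errors are therefore not given. Overlap calls were checked with bedtools 2.31.1 and tested on simulated peaks, of which 0 of 2162 were called wrongly. The tools were pandas 2.3.3, numpy 2.4.6, matplotlib 3.10.9, scipy 1.17.1 and Python 3.11.15.

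The classes, gene lists and families were chosen with earlier results of these data known. Named genes were the 8 highest by fold enrichment of each mark and the 8 widest with both marks, the 10 highest of each class with 1 mark, the 6 strongest peaks per mark over 10 kb from a start, up to 6 list members per class other than the list's most common one, up to 6 per exchange with the control lists, and PML and LMNB1. Some genes that this rule names are not reported here. Members of lists with both marks, keratin genes and p53, Polycomb, inflammatory and YAP examples were named after their values were seen. Alternatives were other overlap rules, promoter windows, start sets, stricter or equal-sized lists, autosomes only, and stricter domains.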

Additional observations from a re-analysis of the deposited data

How the results depend on the processing

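Of 120 alternative values of peak and promoter counts, medians and shares, 79 stayed within 1.5 times the count or within the 95% interval, which covers counting error only, and 41 did not. With equal numbers of peaks per mark, H3K4me3 peaks without H3K27ac came to 10210, H3K27ac peaks without H3K4me3 to 10410, H3K4me3-only promoters to 3882 and H3K27ac-only promoters to 104. The overlapping shares were 63.2% of H3K4me3 and 62.5% of H3K27ac peaks. H3K27ac-only promoters came to 308 with 2.5 kb on either side and 332 with any annotated start. With a -log10 q-value of at least 5, median widths for shared and unshared peaks were 1701 and 814 bp for H3K4me3 and 1450 and 1172 bp for H3K27ac. Median distances for shared and unshared peaks were 1068 and 1229 bp for H3K4me3, an order opposite to that without this limit, and 1077 bp for shared H3K27ac. With the starts of all annotated genes they were 972 and 868 bp, and 919.5 and 18139 bp. With starts at least 50 kb inside a domain, promoters with both marks came to 5.47% in LMNB1, 3.69% in H3K9me3 and 8.02% in PML domains, those with H3K4me3 only to 6.71% in H3K9me3 domains, and those with neither to 17.1%, 13.4% and 18.9%. With domains of at least 500 kb, 18.7% of promoters with neither mark started in PML domains. With equal numbers of peaks in both conditions, 206 promoters held H3K4me3 only in the knockdown and both marks in the control lists, and 179 held H3K4me3 only against neither. The cause of these shifts was not tested. Of 198 named genes, between 160 and 193 kept their class over the 6 promoter alternatives that apply to them. No paired analysis was possible because the lists pool both replicates, and leaving out a replicate was not run for the same reason. The unknown depth limits every statement on a missing peak.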

Other observations

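H3K27ac peaks without H3K4me3 also formed runs along the genome in PML knockdown cells. Joined when less than 10 kb apart, the 18646 such peaks over 10 kb from every protein-coding start fell into 14461 runs, of which 3037 held at least 2 peaks and 74 at least 5. The run with the most acetylated sequence lay inside SUSD1, with 8 peaks and 22561 bp of peak (chromosome 9, 112020180 to 112075480). The next lay inside ACTN4, which encodes an actin crosslinker linked to cell motility, with 17210 bp, and PDE1C, a phosphodiesterase, with 16068 bp. COL4A2, a basement membrane collagen, held 9 peaks with 14200 bp, and ADAMTS12, a matrix protease, 6 peaks with 14047 bp and a highest fold enrichment of 43.0. A run of 9 peaks near BLID, with 13976 bp, lay outside every protein-coding gene. An H3K27ac peak of 24145 bp at the noncoding gene LINC03033 (chromosome 14, 61552176 to 61576320) overlapped 6 H3K4me3 peaks, the most of any H3K27ac peak in the list.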
